A study of Mus musculus with 22 samples.

Results

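The first 2 h after serum was given back to resting fibroblasts were examined across 11208 genes in 4 of the 22 RNA libraries of the study. The comparison set 2 libraries taken 2 h after serum addition against 2 libraries taken at 0 h, all from the empty-vector line. This line is NIH/3T3, an established mouse embryo fibroblast line, carrying a stably integrated doxycycline-inducible construct without an insert (EV). Both groups had first been starved for 48 h in 0.25% heat-inactivated fetal bovine serum. The 0 h group was then collected, and the other group received 10% of the same serum and no doxycycline. EV cells given 500 ng/ml doxycycline for 2 h without added serum (2 libraries) served as a second control. EV libraries from 6 and 12 h of serum (2 each) showed what followed, and whether the line is 1 clone or a pool is not given in the sources used here. The study's design text names re-entry into the cell cycle from a resting state as its question, with serum as the stimulus against which induction of E2F1 was set.

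Serum holds platelet-derived growth factor, lysophosphatidic acid and other mitogens that act on fibroblasts through receptor tyrosine kinases and G protein-coupled receptors. The ERK cascade phosphorylates ternary complex factors on serum response factor (SRF), and the assembly of actin into filaments frees the SRF partners of the MRTF family. Genes transcribed without new protein synthesis are called immediate early genes, and those that need their products are called delayed early genes. AKT, switched on by the same receptors, removes FOXO factors from the nucleus, and FOXO factors keep a set of starvation genes on.

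Values are the deposited normalized counts, that is, reads per gene divided by a library factor and rounded. Changes are log2 changes of (value + 1), serum 2 h over 0 h, tested with limma across all 22 libraries with Benjamini-Hochberg adjustment over the 11208 genes and a threshold of 0.05. The labels number the libraries of a group as replicates but do not say that they were separate cultures, so p-values measure the spread between these libraries, which may be technical.

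Several features of the libraries touch the results. The 0 h libraries totalled 34680926 and 35600629 normalized counts, and the serum 2 h libraries totalled 45073651 and 46057140. Depth could be read from the pattern of values in 3 of the 4, at 39300000 and 32200000 reads on genes at 0 h and 35100000 in serum 2 h replicate 1. Replicates differed by a median of 0.146 (absolute log2) at 0 h and by 0.109 after serum. Replicate 2 at 0 h stood apart from replicate 1 in an rRNA gene, CT010467.1, at 134356 against 12524, and in mitotic genes, which were a median of 1.87 times higher. At serum 2 h CT010467.1 was at 158411 and 448933. Ddx3y, a Y-linked RNA helicase, had 9 and 4 normalized counts at 0 h, 132 and 170 with serum and 103 and 71 with doxycycline. Its value was thus higher than at 0 h in both groups collected 2 h later, with or without added serum.

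All 12 fibroblast markers of a list were in the table, and 4 of them rose, 1 fell and 7 did not pass (3 rose and 5 fell with equal totals). They ran from Pdgfra at -2.64 to Lum at 1.73. Col1a2, a chain of type I collagen, was at 300817 and 259414 before serum and at 246708 and 277094 after it. None of 10 epithelial markers was in the table. The leukocyte list had 2 of 10 members in it (Cd14 and Csf1r), the endothelial list 1 of 10 (Flt1), the striated muscle list 1 of 13 (Tnnt2) and the adipocyte list 1 of 10 (Lpl). Flt1, which encodes a VEGF receptor, went from 193 and 143 to 1785 and 1828. Csf1r, the receptor for colony-stimulating factor 1, went from 154 and 229 to 595 and 642. Defining markers such as Pecam1, Ptprc and Myod1 were not among the genes of the table and are not analysed here. The part of other cells in any result was not tested.

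After 2 h of serum, most listed genes of cytokines, early transcription factors, the actin cytoskeleton and ribosome assembly were higher, and most of the FOXO-linked and interferon-stimulated lists were lower. Growth factor ligands were split, with 15 of 24 higher and 8 lower, and so were growth arrest genes, with 10 of 20 lower and 4 higher. Limma called 7952 genes, or 70.9% of those tested, of which 37.5% were higher and 33.5% lower. Calls of at least 4-fold were fewer, at 381 higher (3.4%) and 402 lower (3.59%). The median change of all genes was 0.03. In bulk RNA a change in the share of cells of a type and a change in the RNA per cell cannot be told apart.

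The deposited scaling and a scaling to equal library totals placed the middle of the genes differently. Genes at least 4-fold higher held 2.10% of all normalized counts at 0 h and 12.0% after serum. The mean total rose by 29.7%, and the 25 genes with the largest absolute rises made up 20.3% of the sum of all rises. With equal totals the median of all genes moved by -0.375, and the calls became 23.3% higher and 52.7% lower. List counts with equal totals are therefore given beside those lists whose balance shifts.

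**Figure D1:**
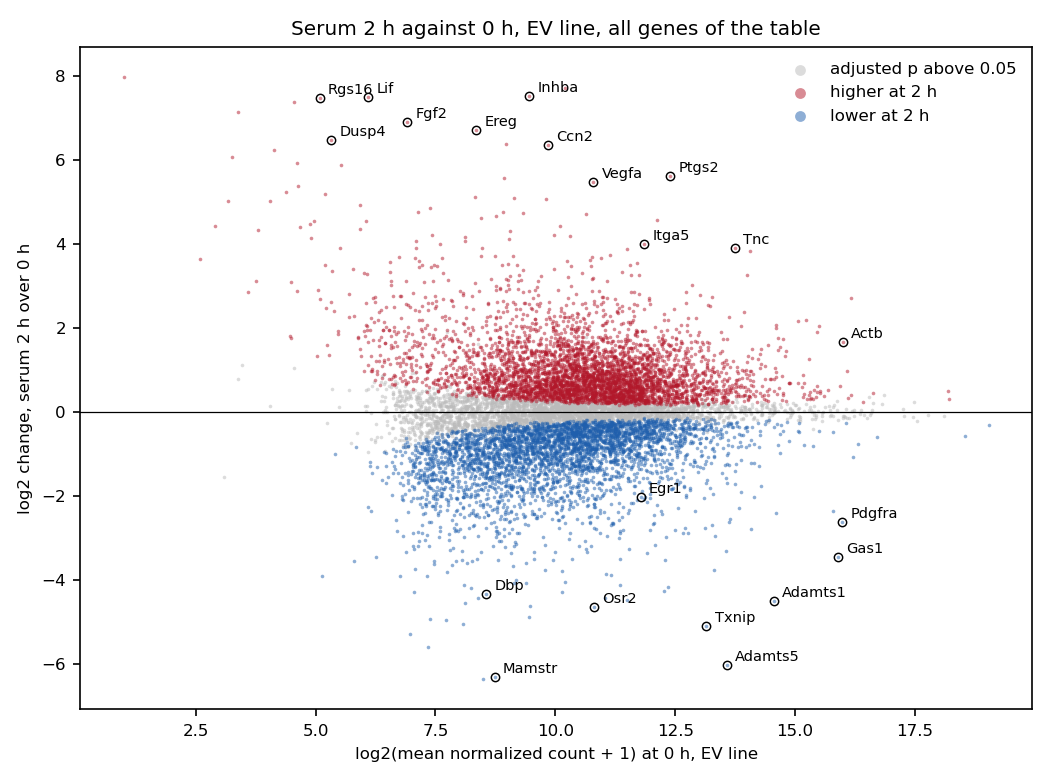
Each point is 1 of 11208 genes, with its log2 mean normalized count at 0 h on the x axis and its log2 change, serum 2 h over 0 h, on the y axis. Red and blue points passed an adjusted p of 0.05 as higher (4200) or lower (3752), grey points did not, and circles mark labelled genes, from Inhba at 7.51 down to Mamstr at -6.33.

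Against the background of 37.5% higher and 33.5% lower, the 27 lists of related genes ranged from those with nearly all members on one side to those that were split. The lists with the highest medians were cytokines, chemokines and prostaglandin enzymes (2.55) and the zinc finger and nuclear receptor early factors (1.85). Of their members, 14 of 22 and 29 of 30 were in the table, where the lowest mean over all 22 libraries was 99.6. Members below that at 0 h, such as Lif, Cxcl1 and Nr4a3, are present only through other groups where they are higher. High medians are thus in part built into the table. The lowest medians were those of interferon-stimulated genes (-1.02), FOXO-linked genes (-0.94) and mitotic genes (-0.94). This order was not fixed: the mitotic median was -0.55 without 0 h replicate 2 and -1.39 without 0 h replicate 1, and under quantile normalization the interferon median was -0.58 and that of growth arrest genes -0.81.

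**Figure D2:**
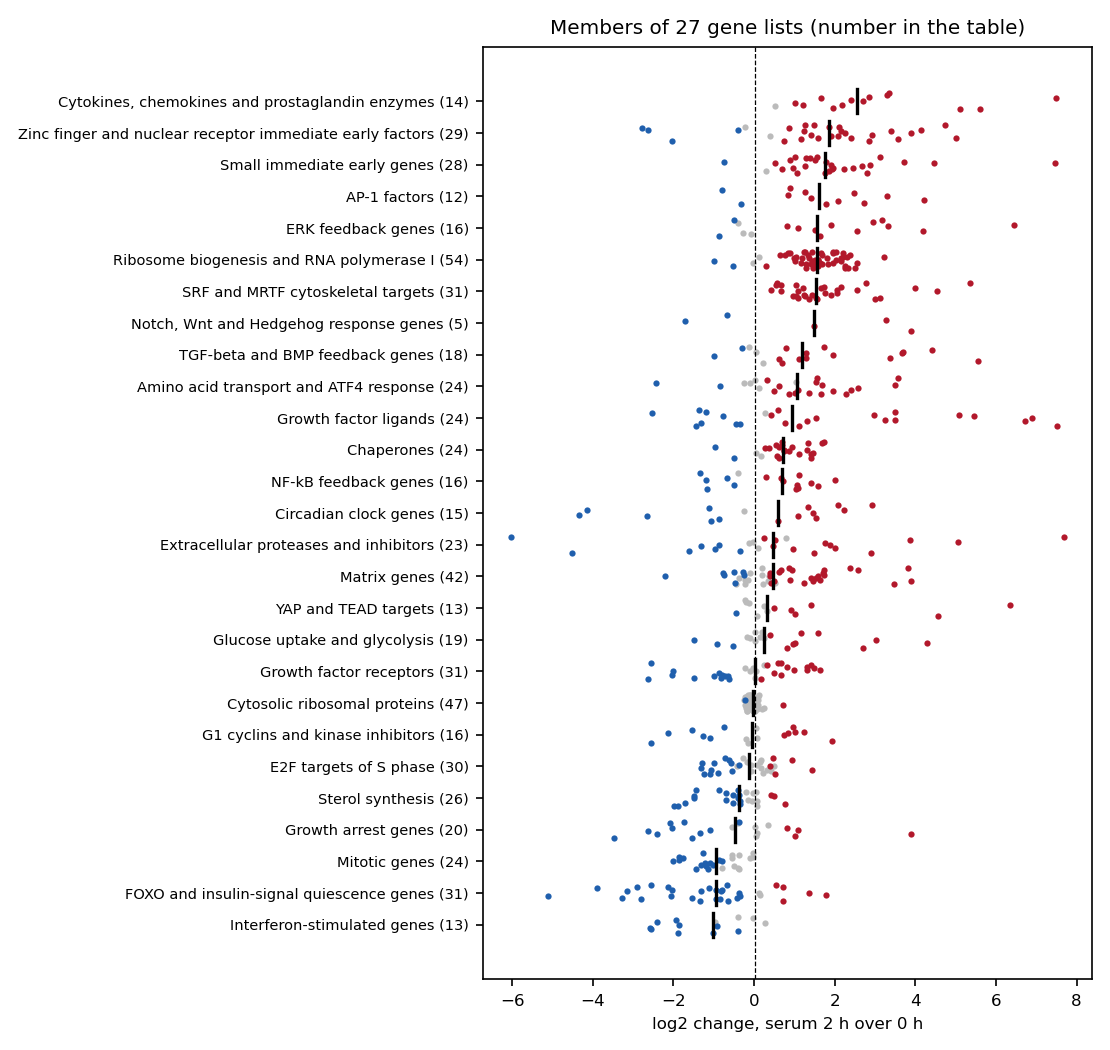
Each point is a gene of 1 of 27 lists, with its log2 change (serum 2 h over 0 h) on the x axis, coloured red or blue where it passed an adjusted p of 0.05 and grey where it did not. Black bars are list medians, the dashed line is the median of all genes (0.03), and the numbers in parentheses count list members in the table; the lists run from interferon-stimulated genes (median -1.02) to cytokines (2.55).

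Early transcription factors were mostly higher at 2 h, but not all of them. Of the 12 AP-1 factors in the table, basic leucine zipper proteins that bind as pairs, 10 rose and 2 fell. Fosl1 (FRA-1) went from 120 and 222 normalized counts to 3064 and 2991, a log2 change of 4.20 (SE 0.29, adjusted p 3.61e-10). Junb went from 2486 and 2782 to 11300 and 10896 (log2 change 2.08, adjusted p 3.58e-11). Both serum libraries lay above both 0 h libraries in each, and the groups did not overlap in 84.1% of all genes. Fos itself, the classic first responder, reached 396 and 406 from 145 and 91 (1.79, adjusted p 0.00149), and Fosb reached 977 and 988 from 143 and 216 (2.48). Jund, the JUN protein abundant in resting cells, fell from 2407 and 2302 to 1298 and 1427 (-0.79).

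The zinc finger and nuclear receptor list had 29 members in the table, of which 23 rose and 4 fell. The related zinc finger genes Egr1 and Egr2 moved in opposite directions. Egr2 (ENSMUSG00000037868.15, chromosome 10, 67535475 to 67542188) went from 185 and 368 to 4707 and 4575, a log2 change of 4.15 (SE 0.38, adjusted p 1.68e-08). Egr1 went from 3313 and 3708 to 868 and 838, a log2 change of -2.04 (SE 0.23, adjusted p 2.4e-07). In the doxycycline libraries Egr1 was at 2001 and 2073 and Egr2 at 120 and 237, so the serum libraries lay below both controls for Egr1 and above both for Egr2. Egr3 had 769 and 1211 at 0 h and 1370 and 1192 after serum, which overlapped (adjusted p 0.316).

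The SNAIL repressors and the KLF factors also held members that moved in opposite directions. Snai1 went from 1254 and 1152 to 14561 and 14250 (3.58), whereas Snai2 went from 1197 and 966 to 194 and 126 (-2.77). The 3 orphan nuclear receptors of the NR4A family all rose, with Nr4a1 from 498 and 782 to 15010 and 18520 (4.74, adjusted p 2.76e-10) and Nr4a3 from 19 and 12 to 454 and 596 (5.01). Klf4 (2.26) and Klf10 (2.85) rose, while Klf11 went from 430 and 407 to 105 and 43 (-2.62). Id1, an inhibitor of basic helix-loop-helix factors and a target of BMP signals, went from 808 and 1212 to 10566 and 10435 (3.41). Hes1, a repressor of the Notch pathway, went from 58 and 31 to 591 and 697 (3.89).

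Of the 28 small immediate early genes, 26 rose and 1 fell, and 22 rose at least 2-fold against 13.8% of all genes. Rgs16, which speeds the shutdown of G protein signals, had one of the largest rises of the table, from 26 and 40 to 6232 and 5594 (7.47, SE 0.52, adjusted p 4.01e-10). Arc went from 28 and 29 to 661 and 645 (4.47), and Ier3, a survival factor, from 591 and 511 to 7488 and 6922 (3.71). Ier2 rose by 1.75 and the mRNA decay factor Zfp36 by 1.91. The exception was Rnd3, an atypical small GTPase that loosens stress fibres, which went from 5465 and 5321 to 3227 and 3177 (-0.75).

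Genes that restrain ERK signalling rose unevenly. Of 16 in the table, 11 rose and 2 fell, and with equal totals 11 rose and 5 fell. Compared with the doxycycline libraries, 11 were higher, 0 lower and 5 did not pass, with a median of 2.26 in place of 1.57. Dusp4 (ENSMUSG00000031530.6, chromosome 8, 34807297 to 34819894), a nuclear phosphatase of ERK, went from 36 and 42 to 3571 and 3428, a log2 change of 6.46 (SE 0.60, adjusted p 2.2e-08). Dusp5 went from 755 and 1777 to 20642 and 21631 (4.19) and Dusp6, the cytoplasmic ERK phosphatase, from 1585 and 1912 to 16188 and 15030 (3.16). Errfi1, which encodes the EGF receptor inhibitor MIG6, went from 1616 and 3737 to 23720 and 25693 (3.33). Every serum value of these 4 genes was above every 0 h value, and the groups did not overlap in 84.1% of all genes. Spry2 (1.52) and Spred2 (2.55) rose too. Dusp1, a phosphatase that favours p38 and JNK, was at 3288 and 1833 before serum and at 1209 and 1470 after it (-0.88, adjusted p 0.0476). That call was lost without 0 h replicate 1 (adjusted p 0.378), without serum 2 h replicate 1 (0.189), without serum 2 h replicate 2 (0.0725) and with a minimum mean of 500 (0.0503), and the doxycycline libraries were at 1263 and 1358, close to the serum values.

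All 31 members of the SRF and MRTF cytoskeletal list in the table rose, 25 of them at least 2-fold, and 28 rose with equal totals. It was the only one of the 27 lists with every member called in 1 direction, although with equal totals 3 members, and under quantile normalization 5, did not pass. Vcl, which encodes the focal adhesion protein vinculin (ENSMUSG00000021823.10, chromosome 14, 20929398 to 21033676), went from 8081 and 8524 to 55570 and 58630, a log2 change of 2.78 (SE 0.10, adjusted p 9.47e-14). Itga5, the fibronectin receptor subunit, went from 3682 and 3736 to 59506 and 58410 (3.99, SE 0.09, adjusted p 6.23e-16). Acta2, smooth muscle actin, went from 6729 and 8028 to 56057 and 62434 (3.01), and Actg2 from 30 and 18 to 687 and 1447 (5.36). The abundant cytoplasmic actins rose less, Actb by 1.66 from 54188 and 75876 to 203166 and 203074. Myh9, the heavy chain of non-muscle myosin II, rose by 2.16 and Flna, which crosslinks actin, by 0.98. Actb, Actg1 and Cfl1 have processed pseudogenes, so their counts are uncertain to that extent. Srf itself went from 2675 and 4520 to 12403 and 13786 (1.91, adjusted p 6.85e-08).

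The promoters of 5 of the genes that rose are shown because each holds the CArG box, the sequence that SRF binds, within 250 bases before and 50 bases after an annotated start. They are from RefSeq on GRCm38.p6, in the direction of the gene, with CArG boxes in capitals. Vcl lies at chr14:20929148-20929447 on the plus strand, Srf at chr17:46556113-46556412 on the minus strand and Dusp5 at chr19:53528895-53529194 on the plus strand. Myl9 lies at chr2:156775214-156775513 and Fhl1 at chrX:56779433-56779732, both on the plus strand.
Vcl: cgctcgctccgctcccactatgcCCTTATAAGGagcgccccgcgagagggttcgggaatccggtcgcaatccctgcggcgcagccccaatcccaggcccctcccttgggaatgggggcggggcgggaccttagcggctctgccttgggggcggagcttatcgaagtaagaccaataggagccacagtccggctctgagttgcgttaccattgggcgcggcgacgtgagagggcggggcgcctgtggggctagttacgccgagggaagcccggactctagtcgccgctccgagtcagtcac
Srf: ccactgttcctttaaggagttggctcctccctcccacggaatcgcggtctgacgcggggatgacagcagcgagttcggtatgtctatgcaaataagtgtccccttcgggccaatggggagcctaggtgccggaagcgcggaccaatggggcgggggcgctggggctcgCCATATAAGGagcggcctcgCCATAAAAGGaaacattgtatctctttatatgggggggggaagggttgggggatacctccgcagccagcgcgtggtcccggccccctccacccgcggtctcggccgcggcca
Dusp5: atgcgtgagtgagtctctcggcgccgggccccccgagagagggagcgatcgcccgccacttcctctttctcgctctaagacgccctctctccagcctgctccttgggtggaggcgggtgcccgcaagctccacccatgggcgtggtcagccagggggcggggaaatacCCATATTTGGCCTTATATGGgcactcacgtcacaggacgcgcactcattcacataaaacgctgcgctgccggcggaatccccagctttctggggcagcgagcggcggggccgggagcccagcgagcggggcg
Myl9: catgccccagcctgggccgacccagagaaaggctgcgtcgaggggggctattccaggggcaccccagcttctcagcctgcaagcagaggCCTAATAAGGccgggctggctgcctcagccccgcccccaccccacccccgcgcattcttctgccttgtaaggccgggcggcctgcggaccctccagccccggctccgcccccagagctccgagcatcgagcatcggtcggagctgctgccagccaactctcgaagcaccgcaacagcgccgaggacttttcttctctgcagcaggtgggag
Fhl1: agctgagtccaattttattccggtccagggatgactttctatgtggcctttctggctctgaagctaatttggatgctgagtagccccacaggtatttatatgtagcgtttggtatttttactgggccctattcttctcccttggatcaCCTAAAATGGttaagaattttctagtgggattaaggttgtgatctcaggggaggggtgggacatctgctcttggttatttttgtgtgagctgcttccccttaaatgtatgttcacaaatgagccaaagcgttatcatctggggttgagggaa
Srf and Dusp5 each hold 2 boxes close together, and in Vcl, Myl9 and Fhl1 the single box begins at position -227, -161 and -102 from the start. Myl9, a myosin light chain, went from 188 and 241 to 1706 and 2048 (3.13), and Fhl1, a LIM domain protein, from 71 and 60 to 1149 and 2038 (4.53). Promoter sequences were matched for 8609 of the 11208 genes, with 11012 promoters in all. A CArG box was found in 1.25% of these, in 3.74% (14 of 374) of the promoters of genes at least 4-fold higher and in 0.499% (2 of 401) of those at least 4-fold lower. The 14 promoters belong to 11 genes, since 4 of them are alternative starts of Egr2, of which 3 share 1 box and 1 holds a different one. Among genes at least 2-fold higher, 49 of 1528 promoters (3.21%), from 45 genes, had a box, and 13 of these genes were in a list. SRF targets are known in part through such elements, so members of that list are not independent of the motif. A match describes letters and is not a site that was shown to be bound.

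The AP-1 motif TGANTCA was in 4.71% of all promoters, 7.22% of those of genes at least 4-fold higher and 7.73% of those at least 4-fold lower. The TEAD motif GGAATG was in 11.8%, 16.8% and 11.7%, and the E-box CACGTG, bound by MYC and clock factors, in 10.2%, 11.5% and 7.98%. The cyclic AMP response element TGACGTCA was in 3.21%, 3.21% and 2.49%, and the NF-kB motif in 5.09%, 5.88% and 5.49%. Both strands were searched, and mean GC content was 61.2%, 62.2% and 59%. TGANTCA and TGACGTCA share both ends, but neither contains the other.

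**Figure D3:**
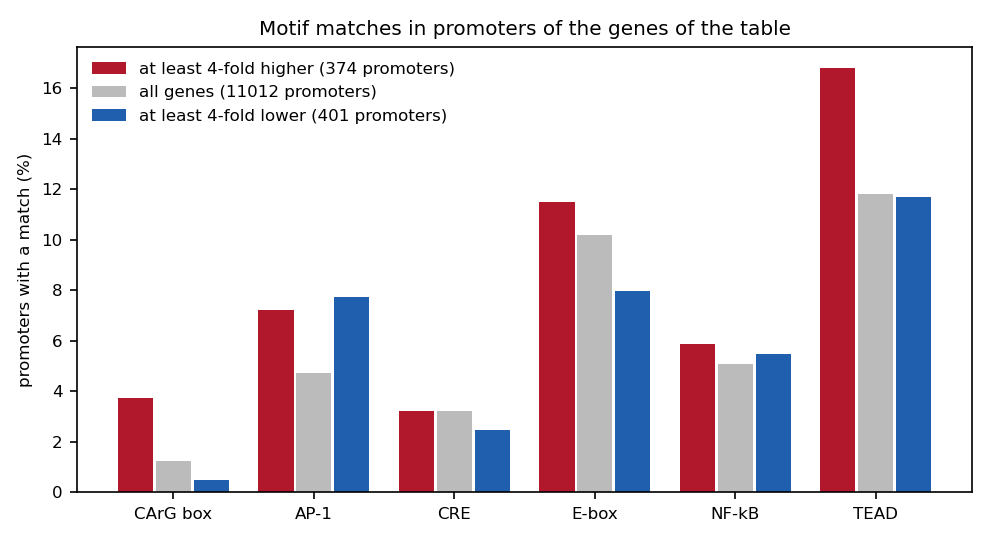
Bars give the percent of promoters with at least 1 match to each of 6 motifs (x axis), for all 11012 promoters (grey), the 374 promoters of genes at least 4-fold higher (red) and the 401 of genes at least 4-fold lower (blue). The CArG box shows 3.74% against 1.25% and 0.499%, and the AP-1 motif is at 7.22% and 7.73% in both changed sets.

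YAP and TEAD targets, another group of genes read out from the cytoskeleton, did not move as a block. Of 13 in the table, 6 rose and 1 fell, and with equal totals 5 rose and 5 fell. The largest rises were those of the secreted matricellular genes Ccn1 and Ccn2. Ccn2 (ENSMUSG00000019997.11, chromosome 10, 24595442 to 24598683), also called CTGF, went from 539 and 1298 to 62888 and 74361, a log2 change of 6.35 (SE 0.36, adjusted p 2.64e-11). Ccn1 (CYR61) went from 3366 and 5576 to 98252 and 106368 (4.56). After 2 h of doxycycline without added serum both were below their 0 h values, Ccn2 at 512 and 352 and Ccn1 at 1748 and 1730. Ankrd1 was at 1637 and 2390 before serum and at 2083 and 2920 after it, values that overlapped (adjusted p 0.198). Both Ccn1 and Ccn2 are also known targets of SRF.

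The TGF-beta and BMP list, made of inhibitors and binding proteins of those pathways, had 13 of 18 members higher and 2 lower, and with equal totals 11 and 4. Pmepa1, a membrane protein that holds back SMAD signals, went from 635 and 334 to 22802 and 20712 (5.56, SE 0.28, adjusted p 5.93e-12). Smad7, an inhibitory SMAD, went from 417 and 442 to 5627 and 5533 (3.70). Ltbp2, a latent TGF-beta binding protein relative, went from 2358 and 1621 to 26993 and 22597 (3.66). Chrd, which encodes the BMP antagonist chordin, went the other way, from 837 and 643 to 419 and 324 (-0.99).

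Growth factor ligands held some of the largest rises of the whole table. Of 24 in the table, 15 rose and 8 fell, 12 and 5 of them at least 2-fold, and with equal totals 13 rose and 8 fell. Fgf2 (ENSMUSG00000037225.13, chromosome 3, 37348346 to 37410108), a fibroblast mitogen, went from 164 and 74 to 14392 and 12065, a log2 change of 6.89 (SE 0.32, adjusted p 2.21e-12). Ereg, the EGF receptor ligand epiregulin, went from 231 and 417 to 34747 and 30564 (6.71), and Hbegf, another such ligand, from 494 and 624 to 19352 and 18561 (5.09). Vegfa (ENSMUSG00000023951.17, chromosome 17, 46016993 to 46032369), which acts on endothelial cells, went from 1796 and 1742 to 82233 and 74185 (5.46, SE 0.16, adjusted p 1.11e-14). Inhba, which encodes the activin A subunit, ended at 131085 and 123956 from 678 and 723 (7.51). In the order given, the mean levels of these 5 genes were 111, 101, 33.9, 44.2 and 182 times higher after serum.

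Among the ligands that fell, Fgf10, which acts on epithelia, went from 684 and 497 to 110 and 90 (-2.54), and Kitl, stem cell factor, from 3850 and 5576 to 1657 and 1746 (-1.45). Vegfb (-1.31), Vegfd (-1.18) and Nrg1 (-1.37) fell while Vegfa rose. Among colony-stimulating and platelet-derived factors, Csf1 went from 16960 and 15872 to 145824 and 165018 (3.24) and Pdgfa from 504 and 532 to 6012 and 5764 (3.5). In each of these genes the groups did not overlap, as in 84.1% of all genes.

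Receptors of these factors showed no common direction. Of 31 in the table, 13 rose and 12 fell, near the shares of all genes, and with equal totals 9 rose and 18 fell. Pdgfra (ENSMUSG00000029231.15, chromosome 5, 75152292 to 75198215), a receptor for platelet-derived growth factor, went from 71387 and 57591 to 10326 and 10304, a log2 change of -2.64 (SE 0.19, adjusted p 9.02e-10). Pdgfrb, its partner receptor, was at 7211 and 6119 and then at 5523 and 5898 (-0.22, adjusted p 0.0705), a difference that passed with equal totals (adjusted p 8.4e-05). Among TGF-beta receptors, Tgfbr2 went from 18165 and 17940 to 4239 and 4647 (-2.02) and the coreceptor Tgfbr3 from 13209 and 12499 to 2052 and 2348 (-2.55). Tgfbr1 rose by 1.48 and the BMP receptor Acvr1 by 1.63. Acvr2b, an activin receptor, went from 339 and 264 to 67 and 82 (-2.0). Fgfr1, the main FGF receptor of fibroblasts, rose from 18081 and 12461 to 29369 and 30518 (1.00).

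Cytokines, chemokines and prostaglandin enzymes were nearly all higher than at 0 h. Of 22 members 14 were in the table, with 13 higher, 0 lower and all 13 at least 2-fold. Compared with the doxycycline libraries, 11 were higher, 1 lower and 2 did not pass, with a median of 1.79 in place of 2.55. Without added serum, 3 were higher and 1 lower after doxycycline than at 0 h (median 0.39). Lif (ENSMUSG00000034394.14, chromosome 11, 4257557 to 4272514), a cytokine of the IL-6 family, went from 62 and 73 to 13633 and 11103, a log2 change of 7.49 (SE 0.59, adjusted p 2.29e-09). Il11, of the same family, went from 306 and 334 to 12419 and 9751 (5.10). Ptgs2 (ENSMUSG00000032487.8, chromosome 1, 150100031 to 150108227), the inducible cyclooxygenase COX-2, reached 275844 and 241108 from 4606 and 6123 (5.60, SE 0.34, adjusted p 6.47e-11). The constitutive enzyme Ptgs1 rose by 1.00. Among chemokines, Ccl2 went from 1506 and 1490 to 13393 and 16403 (3.31) and Cxcl1 from 48 and 31 to 304 and 525 (3.34). Cxcl12 was the member that did not pass (0.52, adjusted p 0.059). Lif had also been higher after 2 h of doxycycline without added serum, at 287 and 408.

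Of 16 NF-kB subunits, inhibitors and targets in the table, 10 rose and 5 fell, and with equal totals 8 rose and 6 fell. Against the doxycycline libraries 5 were higher and 6 lower, which turned the balance. Tnfaip2 rose by 2.02 and Relb, a subunit of the alternative pathway, by 1.42. Nfkbia, which encodes the inhibitor IkB-alpha, went from 1457 and 1280 to 2856 and 2729 (1.03). Vcam1, an adhesion molecule, went from 5862 and 4747 to 1908 and 2249 (-1.35). The interferon-stimulated list was lower, with 9 of 13 members fallen and 0 risen. Irf1, a transcription factor of the interferon response, went from 1101 and 1009 to 168 and 185 (-2.57, adjusted p 9.97e-11), and Stat2 from 2795 and 2261 to 445 and 507 (-2.40). Ifit2 fell by 2.56 and Ddx58, the RNA sensor RIG-I, by 1.94 on the log2 scale. In the doxycycline libraries Ifit2 was at 1076 and 924 and Stat2 at 2662 and 2504, near the 0 h values.

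Of 23 extracellular proteases and inhibitors 12 rose and 7 fell, and with equal totals 9 rose and 8 fell. Compared with the doxycycline libraries, 10 were higher and 9 lower, with a median of -0.134 in place of 0.462. The urokinase receptor gene Plaur went from 791 and 1002 to 30027 and 29174 (5.05, SE 0.19, adjusted p 1.05e-13), and Timp1, an inhibitor of metalloproteases, from 2793 and 2999 to 42603 and 42195 (3.87). Urokinase itself, Plau, rose by 2.89. Adamts5, an aggrecan-cleaving protease (ENSMUSG00000022894.6, chromosome 16, 85856173 to 85901828), went from 13864 and 10549 to 168 and 202, a log2 change of -6.03, so that its mean was 66 times lower. Adamts1, of the same family, went from 27928 and 20351 to 941 and 1148 (-4.52, SE 0.18, adjusted p 3.11e-13). Adamts4 was at 474 and 343 and then at 362 and 523, which overlapped (0.11, adjusted p 0.621).

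Of 42 matrix genes 23 rose and 7 fell, and with equal totals 16 rose and 12 fell. Compared with the doxycycline libraries, 17 were higher and 6 lower, with a median of 0.085 in place of 0.461. Tnc, tenascin C, went from 12318 and 15002 to 203121 and 198757 (3.89, SE 0.17, adjusted p 1.38e-12), and Thbs1, thrombospondin 1, from 13920 and 20100 to 205720 and 271040 (3.82). Has2, which makes hyaluronan, went from 1546 and 1899 to 19613 and 18562 (3.48), while Has1 did not pass (-0.37, adjusted p 0.385). Basement membrane collagens Col4a1 (2.37) and Col4a2 (1.73) rose. Type I collagen did not pass the test, with Col1a1 at 214313 and 151171 and then at 192950 and 228317 (0.22, adjusted p 0.276). Postn, periostin, rested on 0 h libraries that differed, at 3668 and 1329, against 13040 and 13135 after serum (2.57).

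Ribosome assembly genes rose together. Of 54 factors for rRNA synthesis, processing and assembly 50 rose and 2 fell, 44 of them rising at least 2-fold, with a median of 1.57, and with equal totals 49 rose and 3 fell. Rrp12 (ENSMUSG00000035049.4, chromosome 19, 41862851 to 41896173), an export and processing factor, went from 856 and 813 to 7964 and 7613, a log2 change of 3.22 (SE 0.14, adjusted p 7.35e-13). Nolc1, a nucleolar phosphoprotein, went from 2514 and 2505 to 13038 and 13281 (2.39), and Polr1b, the second largest subunit of RNA polymerase I, from 955 and 939 to 4558 and 4203 (2.21). Ncl, nucleolin, rose by 1.5, Nop56 by 1.81 and Npm1 by 0.29. Exceptions were the helicase Ddx10, from 4073 and 3931 to 1998 and 1999 (-1.0), and Imp3 (-0.53). Ncl and Nop56 host small nucleolar RNAs within their introns.

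Ribosomal protein genes did not follow the assembly factors. Of the 47 measured, 1 rose, 1 fell and the median was -0.04. The direction of this list depends on the scaling and the control: with equal totals 1 rose and 43 fell, under quantile normalization 1 rose and 44 fell, and against the doxycycline libraries 11 were higher and 0 lower (median 0.19). The member that rose was Rpl34, from 848 and 771 to 1226 and 1451 (0.72). Most of these genes have many processed pseudogenes, so their counts are uncertain. Myc, which drives both kinds of gene, was at 1723 and 1865 and then at 4343 and 4251.

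Of 19 genes for glucose uptake and glycolysis 9 rose and 3 fell, and with equal totals 8 and 7. Hk2, the inducible hexokinase, went from 539 and 528 to 10297 and 10705 (4.30, SE 0.22, adjusted p 7.33e-12), and the glucose transporter gene Slc2a1 from 3947 and 3954 to 25711 and 25831 (2.71). Pfkfb3, which makes the activator of phosphofructokinase, went from 114 and 73 to 750 and 750 (3.03). Hk1, the constitutive hexokinase, did not pass (-0.18, adjusted p 0.134), nor did Gpi1 (0.01), Tpi1 (0.03), Pgk1 (0.15), Eno1 (0.20) or Pkm (0.25). The glycolytic list was a median of 1.30 times higher in 0 h replicate 2 than in replicate 1.

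Amino acid carriers and ATF4 targets were mostly higher than at 0 h, with 17 of 24 higher and 2 lower (15 and 5 with equal totals). Compared with the doxycycline libraries, 13 were higher, 2 lower and 9 did not pass, with a median of 0.541 in place of 1.061. Without added serum, 5 were higher and 0 lower after doxycycline than at 0 h (median 0.402). Atf4 went from 7330 and 7244 to 23525 and 22389 (1.65). Trib3 went from 82 and 104 to 1226 and 993 (3.56), Mthfd2, a mitochondrial one-carbon enzyme, from 804 and 826 to 4893 and 4816 (2.57), and the leucine carrier gene Slc7a5 from 2914 and 2410 to 13616 and 14245 (2.39). Slc7a3 (-2.42) and Slc38a2 (-0.85) fell. Chaperone genes rose in 20 of 24 cases and fell in 2, in 15 and 4 with equal totals, and in 12 and 4 under quantile normalization. Hspa5, the endoplasmic reticulum chaperone BiP, went from 25674 and 29493 to 91704 and 91898 (1.74), and Bag3 rose by 1.69. The heat-inducible gene Hspa1b fell from 1505 and 1263 to 916 and 1031 (-0.50).

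Sterol synthesis genes were mostly lower after serum. Of 26 in the table, 16 fell, 3 rose and 7 did not pass. With equal totals 22 fell and 1 rose, where 52.7% and 23.3% of all genes did so. The median was -0.38, and it was -0.41 without 0 h replicate 1 and -0.39 without 0 h replicate 2. Dhcr7, which catalyses a last step of the pathway, went from 2022 and 2043 to 508 and 519 (-1.98, SE 0.14, adjusted p 5.22e-10). Hmgcs1 went from 11630 and 12909 to 3885 and 3628 (-1.71) and Mvk from 3355 and 3046 to 1022 and 1263 (-1.49).

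FOXO-linked genes formed one of the groups with most falls, 24 of 31, with 5 that rose. Txnip (ENSMUSG00000038393.14, chromosome 3, 96557957 to 96561883), an inhibitor of glucose uptake, went from 8768 and 9387 to 221 and 311, a log2 change of -5.11 (SE 0.25, adjusted p 3.65e-12). Ccng2, an atypical cyclin of resting cells, went from 2442 and 2159 to 113 and 209 (-3.89), and Pik3ip1, an inhibitor of PI3 kinase, from 1586 and 1621 to 149 and 183 (-3.27). The insulin receptor substrates fell too, Irs1 by 2.55 and Irs2 by 1.31 on the log2 scale, as did the factors Foxo3 (-2.03) and Foxo4 (-2.06). Sestrins were divided: Sesn1 (-2.90) and Sesn3 (-2.80) fell and Sesn2, which ATF4 also induces, rose from 1049 and 1146 to 2737 and 2951 (1.37).

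Growth arrest genes, several of them first found in starved 3T3 cells, fell in 10 of 20 cases and rose in 4 (15 and 3 with equal totals). Gas1 (ENSMUSG00000052957.8, chromosome 13, 60174405 to 60177365), a membrane protein that can block entry into S phase, went from 66301 and 55709 to 5668 and 5285, a log2 change of -3.47 (SE 0.13, adjusted p 1.25e-13). Gas7 went from 24195 and 25703 to 4993 and 4350 (-2.42), and the MYC antagonist gene Mxd4 from 6884 and 6546 to 1549 and 1749 (-2.03). The name of the list did not fix the direction, since Gas2 (0.03) did not pass and Gas6, a ligand of AXL, rose by 0.81. Gas1, Gas7 and Txnip overlap other annotated genes, and whether the counting used strand is not given in the sources used here. The same limit applies to Inhba, Fgf2, Ereg, Vcl, Itga5, Hk2, Irf1, Pdgfra, Tnc, Thbs1, Ccn2, Fosl1, Junb, Jun, Rgs16, Dusp1 and Dusp5.

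Cell cycle genes of G1 had no common direction. Of 16 in the table, 6 rose and 6 fell, near the shares of all genes. With equal totals 5 rose and 9 fell, where 23.3% and 52.7% of all genes did so. Cdkn1b, the p27 inhibitor of resting cells, went from 5312 and 5016 to 1801 and 1747 (-1.54, adjusted p 1.24e-10), while Cdkn1a, the p21 inhibitor, went from 2128 and 2064 to 8505 and 7608 (1.94, adjusted p 1.19e-11). Rbl2, the p130 pocket protein that holds E2F genes off, fell by 2.13 on the log2 scale. Ccnd2 rose by 1.02 and Ccne1 by 0.96. Ccnd1, the cyclin D1 gene, was at 1724 and 2535 and then at 2357 and 1503, which overlapped (-0.15, adjusted p 0.582).

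Counts in the S phase and mitotic lists depended on single 0 h libraries. Of 30 E2F targets of S phase 5 rose and 12 fell, but without 0 h replicate 2 the counts were 11 and 7, without 0 h replicate 1 they were 2 and 14, and with equal totals 2 and 15. E2f3 rose by 1.44 and Pold1, the catalytic subunit of DNA polymerase delta, fell from 1173 and 1419 to 552 and 488 (-1.31). In each both 0 h libraries were on one side, and the groups did not overlap in 84.1% of all genes. Of 24 mitotic genes 0 rose and 14 fell, with 7 falling without 0 h replicate 2, 21 without 0 h replicate 1 and 21 with equal totals. Nusap1, a spindle protein, was at 783 and 1655 before serum and at 358 and 225 after it (-2.0, SE 0.34, adjusted p 3.8e-05). Cdk1 was at 1882 and 3412 and then at 2633 and 2386, with both serum values between the 0 h values. Mitotic sums were 37413 and 68339 at 0 h and 32736 and 26105 after serum, so the 0 h libraries differed from each other more than replicate 1 differed from serum replicate 1.

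**Figure D4:**
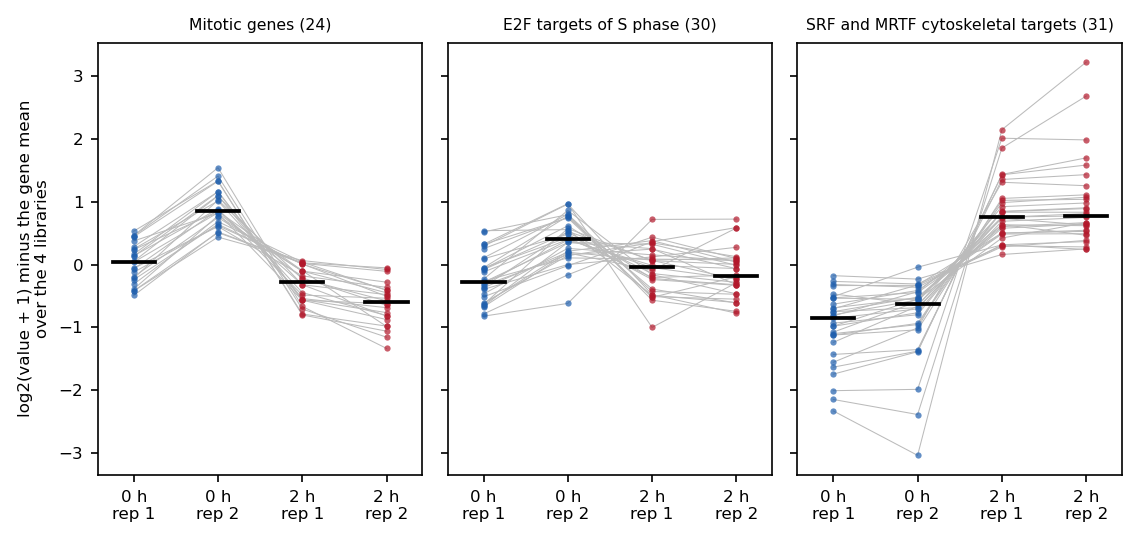
Each grey line is a gene and each point its log2(value + 1) in 1 library minus its mean over the 4 libraries (y axis), for 0 h replicates (blue) and serum 2 h replicates (red), with black bars at the list median. Mitotic and S phase genes stand higher in 0 h replicate 2 than in replicate 1, by a median ratio of 1.87 and 1.55, whereas for the 31 SRF and MRTF targets both 0 h libraries lie below both serum libraries.

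Circadian clock genes moved in both directions. Of 15 in the table, 8 rose and 6 fell, and with equal totals 7 and 7. Per2, a repressor with a known early response to serum, went from 200 and 237 to 1031 and 1019 (2.23, adjusted p 6.78e-07), and Bhlhe40 from 413 and 499 to 3380 and 3543 (2.93). Per1 had a smaller change, from 1800 and 1567 to 2243 and 2841 (0.59, adjusted p 0.0074), which did not pass with equal totals (adjusted p 0.278). The output factors of the PAR bZIP family fell, Dbp from 390 and 363 to 14 and 22 (-4.34) and Hlf from 3302 and 1941 to 113 and 180 (-4.14). Per3 fell by 2.65 on the log2 scale, and Clock rose by 1.53. Of the 5 Notch, Wnt and Hedgehog genes in the table, Hes1, Lef1 (3.27) and Znrf3 (1.49) rose and Gli2 (-1.71) and Ptch1 (-0.66) fell.

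The 15 largest rises included genes better known from other tissues. Tnnt2, cardiac troponin T, was at 2 and 0 before serum and at 484 and 384 after it, and Nes, the intermediate filament nestin, went from 19 and 0 to 657 and 606. Nppb, the natriuretic peptide BNP, went from 6 and 27 to 947 and 1142 (6.22), and Cacna1i, a T-type calcium channel subunit, from 9 and 38 to 1221 and 1184 (5.93). Fitted changes from such low 0 h values depend on the pseudocount. The lowest mean over all 22 libraries in the table was 99.6, so genes this low at 0 h are present only through other groups where they are higher. Their large rises are thus in part built into the table. Sema7a, a membrane-bound semaphorin, rose from a measurable base of 375 and 626 to 37985 and 42271 (6.37, SE 0.35, adjusted p 1.67e-11). Fibcd1 was at 1942 and 2404 after serum, from 3 and 42. Eva1a was at 563 and 557, from 4 and 13.

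The largest falls took genes to near the bottom of the scale. Mamstr, a coactivator of MEF2 (ENSMUSG00000042918.17, chromosome 7, 45639977 to 45646521), went from 407 and 441 to 3 and 6 (-6.33). Osr2, a zinc finger factor of mesenchyme, went from 2028 and 1561 to 64 and 75 (-4.66, adjusted p 1.87e-11), and Dtx4, a ubiquitin ligase linked to Notch, from 2939 and 2797 to 97 and 167 (-4.48). The BH3-only gene Bmf, which promotes cell death, went from 803 and 586 to 15 and 32 (-4.90), and Il15, a cytokine, from 208 and 125 to 3 and 6 (-4.94). Nhsl1 had unequal 0 h libraries, at 203 and 44, against 5 and 0 after serum. In all of these both serum libraries were below both 0 h libraries, which the rule that named them required. The 2 groups did not overlap, in either direction, in 84.1% of all genes.

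The EV libraries given doxycycline for 2 h gave a second control. Against them the serum libraries had 35% of genes higher and 32.1% lower. Of the 381 genes at least 4-fold higher than at 0 h, 365 were also called higher against this control, and of the 402 at least 4-fold lower, 401 were called lower. Both comparisons use the same serum libraries. The median change of the 381 genes was 2.59 against 0 h and 2.26 against doxycycline. Some genes had already moved without added serum. Of the 381 raised genes, 98 were also called higher after doxycycline than at 0 h and 6 were called lower. Of the 402 lowered genes, 38 were also called lower and 1 higher. The same 0 h libraries chose these sets, so part of this overlap is built in. Acta2 was at 17249 and 17556 after doxycycline and Dusp4 at 134 and 248. Actg2 had a serum change of 2.62 against this control in place of 5.36. Lvrn, the aminopeptidase laeverin, was at 77 and 89 with doxycycline, between 398 and 323 at 0 h and 18 and 0 with serum.

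By 6 h most of the strong changes had become smaller. The direct comparison of the serum libraries, in which the 0 h libraries play no part, gave 24.3% of all genes higher and 24.3% lower at 6 h than at 2 h. With equal totals these became 4077 and 1793 genes, and for 12 h against 2 h 5539 and 2003. Of the 381 strongly raised genes, 277 had come down by 6 h and 12 had risen further. By 12 h this was 334 and 7, where 31.7% of all genes changed in each direction. Of the 402 strongly lowered genes, 281 had come up by 6 h and 21 had fallen further, with 326 and 10 by 12 h. The 2 h libraries chose these sets, so a return is in part built into the choice and the counts are a description. Median changes from 0 h were 2.59, 1.79 and 1.24 for the raised set at 2, 6 and 12 h, and -2.46, -1.53 and -1.21 for the lowered set.

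Individual groups differed in how long they stayed up. Egr2 dropped to 576 and 411 at 6 h and Fosb to 61 and 82, below the 0 h values in the case of Fosb. Lif was at 905 and 304, Inhba at 10089 and 10955 and Vegfa at 10771 and 8253. Acta2 stayed at 66721 and 65475 at 6 h and 51992 and 49641 at 12 h, and its difference between 6 and 2 h did not pass (0.16, adjusted p 0.347). Tnc (-0.34, adjusted p 0.112) and Timp1 (-0.15) also did not pass at 6 h, with Tnc at 171859 and 146569. Ribosome assembly genes kept a median change of 1.52 at 6 h and 1.38 at 12 h, while AP-1 factors were at 0.08 and -0.003. Txnip rose again to 2008 and 3007 at 6 h, whereas Pdgfra was at 8469 and 5245, below its 2 h level (-0.63, adjusted p 0.0122).

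**Figure D5:**
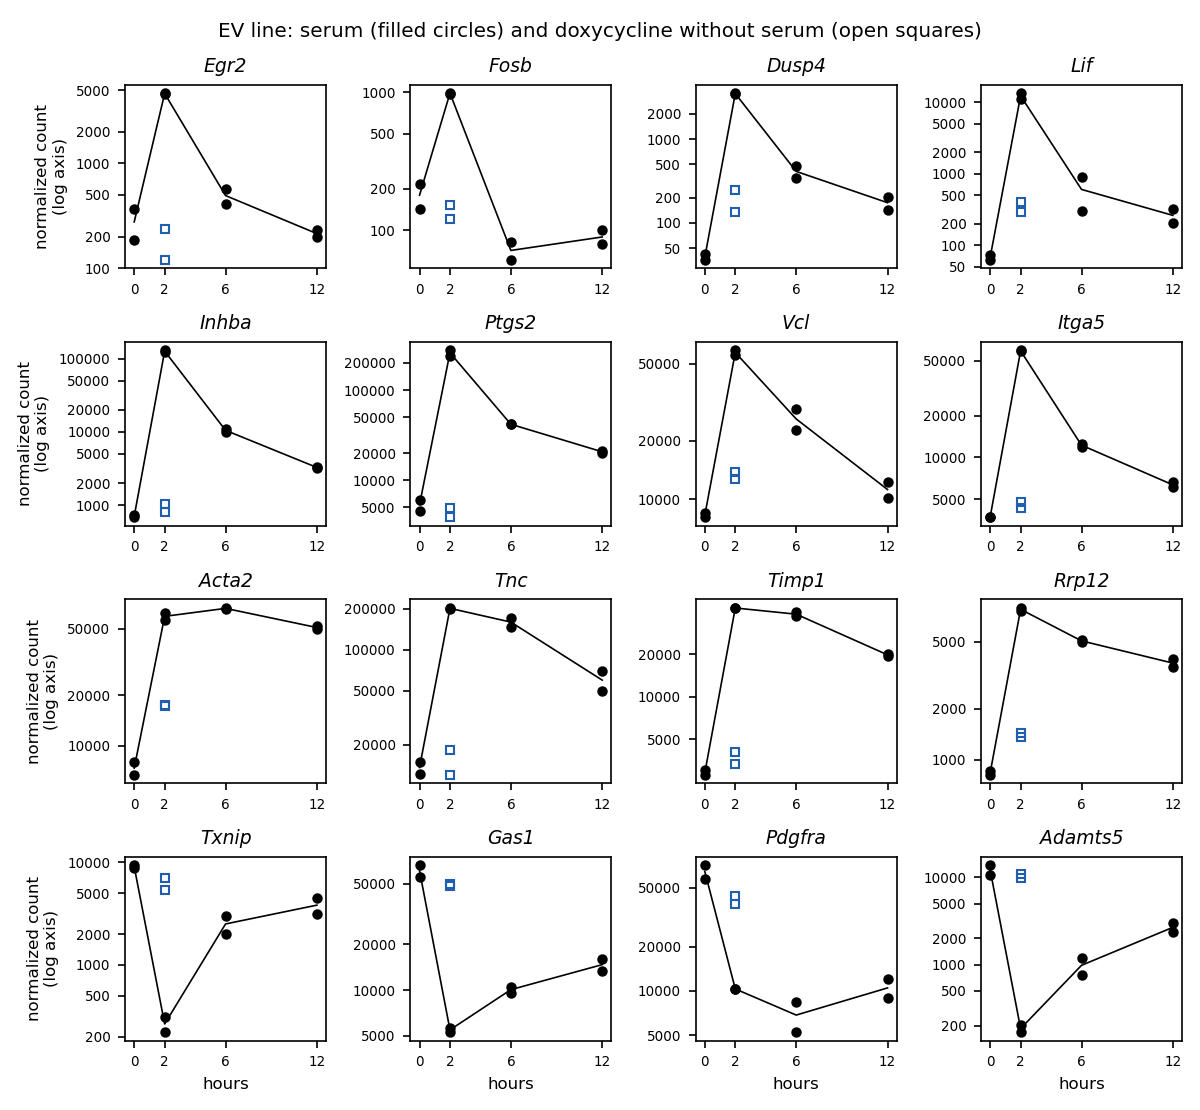
Normalized counts (y axis, log scale) of 16 genes at 0, 2, 6 and 12 h (x axis) in the EV line, with filled circles for each serum or 0 h library, lines through the means, and open squares for the 2 libraries given doxycycline for 2 h without added serum. Egr2, Fosb, Dusp4, Lif, Inhba and Itga5 peak at 2 h, Acta2 is still at 51992 and 49641 at 12 h, and Adamts5 climbs from 168 and 202 back to 2367 and 2994.

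Genes at least 4-fold lower had spans close to those of all genes, and genes at least 4-fold higher had somewhat longer ones. Spans of 100 kb or more made up 17.4% of the raised set, 13.7% of the lowered set and 12.1% of all genes. The median span from first to last base was 26750 bp for the raised set, 23171 bp for the lowered set and 22980 bp for all genes with an annotation. Of genes spanning 100 to 200 kb, 6% were at least 4-fold higher, against 3.46% of those under 10 kb, and 2.84% of those over 200 kb. By annotated type, lincRNA genes had a median change of -0.51 with 23 higher and 47 lower of 98, and antisense genes one of -0.66 with 12 and 38 of 70. Protein-coding genes had a median of 0.04. Without stated strand use, reads of an antisense gene and its partner cannot be told apart.

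The authors' deposited table for this contrast lists 1268 genes, 549 higher and 719 lower, all with an absolute log2 change of at least 2. Of these 785 are in the normalized table and 483 are not, and all 785 were called here in the direction of the authors' deposited table. Both sets of calls rest on the same libraries and the listed changes are large. The match was thus largely built in and is not independent support. Among the 783 calls of at least 4-fold made here, 778 are in the authors' deposited table. The median absolute difference between the log2 changes of the authors' deposited table and those given here was 0.011.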

How the data were processed

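RNA of 22 NIH/3T3 libraries (11 groups of 2) was measured by polyA RNA sequencing, and 4 of them form the comparison. The authors deposited 1 table of normalized counts, rounded to whole numbers and treated here as a score, for 11208 genes with a lowest mean of 99.6. Per the submitters' processing notes the tools named are FastQC, Trimmomatic, HISAT2, featureCounts and DESeq2 with build mm10; versions, strand use and the scaling method are not given in the sources used here. A second deposited table lists the authors' own log2 changes and adjusted p-values for genes past their thresholds. Whole reads could not be recovered for every library, so no count test was run.

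Values were taken as log2(value + 1) and fitted with limma 3.58.1 (R 4.3.3) with 11 group means over all 22 libraries, which leaves 11 residual degrees of freedom, and Benjamini-Hochberg adjustment at 0.05. Lists were described with pandas 2.3.3, numpy 2.4.6 and Python 3.11.15, and figures drawn with matplotlib 3.10.9. On data simulated for 11208 genes the fit recovered 93 of 100 changed 2-fold and 100 of 100 changed 4-fold, and called 6 unchanged genes. The simulated noise was independent between genes and libraries, and far fewer genes changed than the 70.9% called here. These rates therefore need not hold for the real comparison.

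The 27 gene lists, 6 marker lists and all named members were chosen with earlier results of these data known. Named genes are the 15 largest rises and falls with both libraries of one group above both of the other and a mean of at least 50, the 4 largest called changes in each list, and a fixed set. Other list members were chosen after their values were seen, and some genes that meet the rule are not reported. Positions are from GENCODE M21 (GRCm38), which held 10977 of the identifiers, and promoters from RefSeq.

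Alternatives were a pseudocount of 8, a mean of at least 500, equal totals, quantile normalization, a replicate block, a 2-fold minimum and leaving out each library. Equal totals without rRNA was added after seeing the data.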

Additional observations from a re-analysis of the deposited data

Results flagged for a closer look

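In 4 of the 50 genes of the fixed set (8%) the change from 0 h had opposite signs at 2 and 12 h of serum, and the test of 12 h against 2 h, in which the 0 h libraries cancel, passed with limma. Fosb had a log2 change of 2.48 at 2 h and -0.98 at 12 h, a difference of -3.45 (adjusted p 3.06e-08). Per2 had 2.23 and -2.29, a difference of -4.52 (adjusted p 1.51e-10), and Per1 had 0.59 and -0.65, a difference of -1.23 (adjusted p 1.06e-05). The 2 h change of Per1 did not pass with equal totals (adjusted p 0.278). E2f1, the factor the study induced in its other line, went the other way, with -1.09 and 1.43, a difference of 2.52 (adjusted p 4.83e-12). Over all 11208 genes 757 (6.75%) had such opposite signs, a share close to that of the fixed set. Of these, 348 were higher and then lower and 409 lower and then higher.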

How the results depend on the processing

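Equal totals gave 2611 genes higher and 5907 lower at serum 2 h against 0 h (2643 and 5857 without rRNA genes in the totals), 2114 and 6050 against doxycycline, and 4077 higher and 1793 lower at 6 h than at 2 h. For 12 h against 2 h it gave 5539 and 2003. These shifts follow from the larger totals of the serum 2 h libraries. A 2-fold minimum left 1543 and 1607 genes against 0 h, 1215 and 1385 against doxycycline, and 543 and 630 for 6 h against 2 h. For 12 h it left 1224 and 990. Leaving out 1 library, so that the lone library of its group is assumed to vary like the other groups, gave 3810 to 4016 higher and 3391 to 3462 lower against 0 h, and 3419 to 3680 and 3158 to 3176 against doxycycline. The ranges were 2196 to 2353 and 2166 to 2404 at 6 h, and 3026 to 3147 and 3092 to 3136 at 12 h.

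Among named genes, Dusp1, E2f2, Fbn1, Jun, Per1 and Tnfaip3 passed with the deposited scaling and all libraries but not in at least 1 alternative. Under quantile normalization the limma adjusted p was 0.596 for E2f2, 0.256 for Fbn1 and 0.0584 for Jun. Ccnb1, Pdgfrb and Mcm3 passed only in alternatives. Of the named genes, 2 changed sign, neither of which had passed. With 1 library left out, Ccnd1 ranged from -0.48 (without serum 2 h replicate 1) to 0.17 (without serum 2 h replicate 2), with 0.13 without 0 h replicate 2. Mcm3 was at -0.16 with equal totals, with and without rRNA, and at -0.014 under quantile normalization, and ranged from -0.15 to 0.57, the last without 0 h replicate 2, where it passed (adjusted p 0.00191). Apart from the scalings, the cause was not tested.

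With replicate number as a block 4235 genes were higher and 3799 lower, of which 4188 and 3742 were among the 4200 and 3752. Same-numbered libraries shared only a number: over 55 pairs of groups the correlation of their deviations ran from -0.277 to 0.455 and was over 0.1 in 18, so the block was not used.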
